A study of Rattus norvegicus with 10 samples.

Results

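MHC class II antigen presentation was described in rat hearts through 8 genes. They encode the chains of the classical class II molecules (RT1-Ba, RT1-Bb, RT1-Da and RT1-Db1), the peptide exchange factor DM (RT1-DMa and RT1-DMb), the invariant chain (Cd74) and the class II transactivator (Ciita). Members were chosen by symbol: every probe set whose only gene symbol in the platform annotation was 1 of the 8 was taken, which gave 14 of the 31042 probe sets of the table and 8 of its 14217 named genes. RT1-Ba had 4 probe sets, RT1-Bb, RT1-Db1 and Ciita had 2 each, and the other members had 1 each.

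The hearts came from male rats of the inbred Fischer-344 strain on standard chow, and gave 5 samples at 6 months (young) and 5 at 24 months (old), each hybridized to 1 Affymetrix rat genome array. The series was designed around genes of mitochondrial metabolism. Its sample protocols name the whole heart and its design text names the ventricles, so the share of atrial tissue is not settled. The arrays are numbered 1, 2, 3, 4 and 6 in the young group and 2 to 6 in the old group. Whether the 5 arrays of an age came from 5 different animals is not stated outright, and if not, a p-value here reflects only sample-to-sample spread that may be technical. The deposited log2 values are centred on each probe set's own median across the 10 arrays, base 2 being an inference. They show how arrays differ in 1 gene and cannot be set against another gene's level.

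Class II molecules are heterodimers of an alpha and a beta chain on the surface of antigen-presenting cells, where they show peptides from endocytosed proteins to CD4+ T cells. The invariant chain blocks the peptide groove of a new dimer and guides it to the endosome, proteases trim that chain to a remnant named CLIP, and DM exchanges CLIP for antigenic peptide. Transcription of the class II, DM and invariant chain genes depends on the transactivator, which is drawn to a conserved X and Y box module in their promoters. In the heart, class II is carried mainly by resident macrophages and dendritic cells between the muscle cells.

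The promoter letters of this module are shown before the values, to show what they look like in these genes; no link between them and the values was tested. The RefSeq promoter table of assembly GRCr8, which is of a Brown Norway rat and not of Fischer-344, held 6 of the 8 members, each with 250 bases before the annotated start and 50 after it. RT1-DMb and Ciita are not shown. The lines below give 80 bases of 5 promoters, 5' to 3' on the strand of the gene, aligned so that the Y box letters TGATTGG (an inverted CCAAT box) stand in the same column. Capitals mark TGATTGG and, upstream of it, the letters GCAAC at the core of many X boxes.

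RT1-Ba: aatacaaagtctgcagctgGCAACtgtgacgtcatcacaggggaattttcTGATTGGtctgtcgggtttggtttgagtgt
RT1-Bb: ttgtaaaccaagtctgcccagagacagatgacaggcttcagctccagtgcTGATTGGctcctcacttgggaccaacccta
RT1-Da: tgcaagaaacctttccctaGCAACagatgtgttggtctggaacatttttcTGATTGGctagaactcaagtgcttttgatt
RT1-Db1: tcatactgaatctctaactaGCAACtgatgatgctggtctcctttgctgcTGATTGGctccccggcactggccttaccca
RT1-DMa: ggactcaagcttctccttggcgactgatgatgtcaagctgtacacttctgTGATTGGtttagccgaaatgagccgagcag

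All 5 windows lie on chromosome 20, where the RT1 genes neighbour each other. They span chr20:4576962-4577041 on the plus strand (RT1-Ba), chr20:4604152-4604231 on the minus strand (RT1-Bb), chr20:4515314-4515393 on the plus strand (RT1-Da), chr20:4560215-4560294 on the minus strand (RT1-Db1) and chr20:4712372-4712451 on the minus strand (RT1-DMa). TGATTGG was present in 5 of the 6 members, Cd74 being the exception, and on either strand in 7.06% of all 33469 promoters of that length. GCAAC was present in 4 of the 6 (RT1-Ba, RT1-Da, RT1-Db1 and Cd74) and in 35.1% of all. GCAAC followed by TGATTGG on 1 strand after a gap of 10 to 30 bases was found in 3 members, with gaps of 26 bases in RT1-Ba, 26 in RT1-Da and 25 in RT1-Db1, and in 49 of all promoters (0.146%). The letters searched were set with these promoters in view, they overlap no other letters searched, and a match is a description of the sequence.

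None of the 8 genes passed the test of age. Old and young arrays were compared with limma over all 14217 genes, and "rose" or "fell" is used only below a Benjamini-Hochberg adjusted p of 0.05. That threshold was passed by 11.9% of all genes and by 0 of the 8 members, whose adjusted p ranged from 0.0623 to 0.934. Of the probe sets, 8.03% of all and 0 of the 14 members passed. The count over all genes, 1686, was 988 to 1089 without young replicate 2 or 3 or old replicate 5 or 6, and the count of members was 1 (RT1-DMa) without young replicate 1, old replicate 2 or old replicate 3. At an unadjusted limma p under 0.05 there was 1 member gene, RT1-DMa, against 26.3% of all genes (1 of the 14 probe sets against 21.9%), and by an exact permutation test RT1-DMa (p = 0.0238) was again the single member below 0.05. Young and old values overlapped in all 8 genes, and in all 14 probe sets, whereas 9.91% of all genes and 7.32% of all probe sets had no overlap. The mean was higher in old hearts for 7 of the 8, with a median difference of 0.09 against -0.01 over all genes; Cd74, the exception, was also higher in old hearts without young replicate 1 or old replicate 3. In whole tissue such as this, fewer cells of a type and less RNA per cell cannot be told apart.

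**Figure D1:**
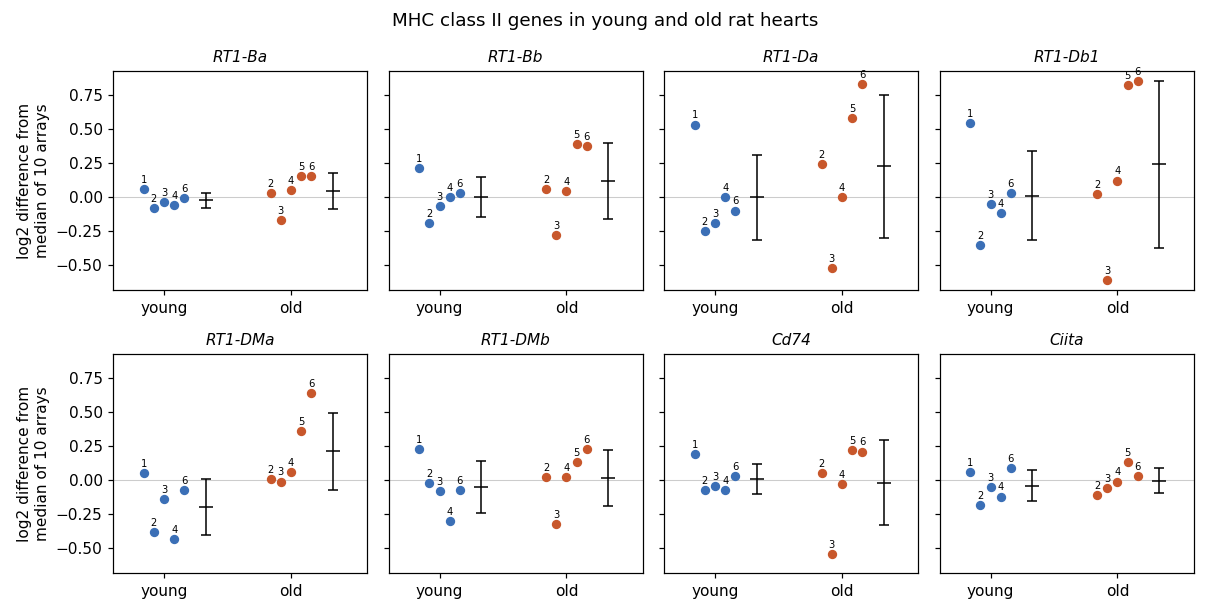
Log2 difference from the median of the 10 arrays (vertical axis) for the 8 class II genes in young and old arrays, with probe sets of a gene averaged. Points are arrays labelled by replicate number, and bars give the mean and SD of 5 arrays; the ages overlap in every gene, old replicate 3 is the lowest array in 6 genes, and old replicates 5 and 6 hold the highest value in 7.

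RT1-Da encodes the alpha chain of the D molecule, the rat counterpart of human HLA-DR. Its values in young replicates 1, 2, 3, 4 and 6 were 0.53, -0.25, -0.19, 0.00 and -0.10, and in old replicates 2, 3, 4, 5 and 6 they were 0.24, -0.52, 0.00, 0.58 and 0.83. The highest young array thus stood above 3 of the 5 old arrays, and the lowest of all was an old one. The means were 0.00 ± 0.31 (SD, n = 5) and 0.23 ± 0.52 (SD, n = 5), a 1.17-fold difference (log2 0.23 ± 0.22 SE, 95% interval -0.26 to 0.71, limma adjusted p = 0.571). The interval leaves room for a 1.64-fold higher level in old hearts as well as for 0.838-fold.

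RT1-Db1 encodes the beta chain that pairs with it. As the mean of its 2 probe sets, the young arrays read 0.54, -0.35, -0.05, -0.12 and 0.03 and the old ones 0.02, -0.61, 0.12, 0.82 and 0.85, in the order of replicates given above. The same arrays were high and low as for its partner: young replicate 1 and old replicates 5 and 6 at the top, old replicate 3 at the bottom. The difference was 0.23 ± 0.25 SE (95% interval -0.32 to 0.78, limma adjusted p = 0.624). Its 2 probe sets gave differences of 0.38 (1370382_at, adjusted p = 0.438) and 0.08 (1370383_s_at, adjusted p = 0.897). That gap of 0.30 within arrays had the smallest p that 5 against 5 arrays allow in an exact two-sided permutation test (p = 0.00794), but did not pass when adjusted over the 9 pairs of probe sets that share a gene (0.0714). The s in the second name marks a probe set that can detect more than 1 transcript, and its difference was -0.04 without old replicate 5, -0.08 without old replicate 6 and -0.09 after quantile normalization. The paralog RT1-Db2 was not analysed here.

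RT1-Ba and RT1-Bb encode the alpha and beta chains of the B molecule, the counterpart of human HLA-DQ. For each, 1 probe set followed the pattern of the D chains and the others were nearly flat. The RT1-Ba probe set 1370822_at read 0.39, -0.45, -0.16, -0.08 and -0.08 in young arrays and 0.08, -0.65, 0.15, 0.54 and 0.78 in old ones. Its difference was 0.26 ± 0.22 SE (95% interval -0.22 to 0.74, limma adjusted p = 0.562). The other RT1-Ba probe sets, 1377334_at, 1381593_x_at and 1392334_at, ranged over only 0.33, 0.29 and 0.24 across all 10 arrays, against 1.42 for 1370822_at and a median of 0.37 over all probe sets of the table. They had differences of 0.01, 0.05 and -0.05 (adjusted p of 0.954, 0.674 and 0.687).

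The RT1-Bb probe set 1371033_at read 0.43, -0.36, -0.10, -0.02 and -0.02 in young arrays and 0.10, -0.50, 0.02, 0.67 and 0.78 in old ones, with the extremes on the same arrays as RT1-Ba. The ages overlapped here too, since young replicate 1 exceeded 3 old arrays. The difference was 0.23 ± 0.21 SE (95% interval -0.23 to 0.68, limma adjusted p = 0.599). The second probe set, 1371065_at, ranged over 0.16 and differed by 0.01 (adjusted p = 0.916). Averaging all probe sets of a gene gave 0.07 ± 0.06 SE for RT1-Ba (adjusted p = 0.545) and 0.12 ± 0.12 SE for RT1-Bb (adjusted p = 0.572), so these gene values carry the flat probe sets as well.

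RT1-DMa encodes the alpha chain of DM, and it had the largest age difference of the 8. Young arrays read 0.05, -0.38, -0.14, -0.43 and -0.07 and old arrays 0.01, -0.01, 0.06, 0.36 and 0.64. All 5 old arrays stood above the young median of -0.14, while young replicate 1 stood above old replicates 2 and 3. Means were -0.19 ± 0.20 (SD, n = 5) in young and 0.21 ± 0.28 (SD, n = 5) in old hearts, a 1.33-fold difference with a 95% interval of 1.09 to 1.62 (log2 0.41 ± 0.13 SE). It missed the threshold over all genes (limma adjusted p = 0.0623) and over all probe sets (0.0711). The gene passed without young replicate 1 (adjusted p = 0.0476), old replicate 2 (0.0467) or old replicate 3 (0.0433), and with quantile normalization (0.0440) or array weights (0.0329). Without any other 1 array its adjusted p lay between 0.0663 and 0.143.

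RT1-DMb encodes the beta chain of DM, and its values were 0.23, -0.02, -0.08, -0.30 and -0.07 in young and 0.02, -0.32, 0.02, 0.13 and 0.23 in old arrays. The highest young array and the highest old array were level, and old replicate 3 was again the lowest. The difference was 0.06 ± 0.11 SE (95% interval -0.17 to 0.30, limma adjusted p = 0.763). The partner chains therefore had differences of 0.41 and 0.06, and the gap of 0.35 between them gave p = 0.0159 (exact two-sided permutation test of the within-array difference), or 0.0889 adjusted over the 28 pairs of members. Among those 28 pairs, 6 had an unadjusted p under 0.05 and 0 passed after adjustment; 5 of the 6 involved RT1-DMa. Without old replicate 2, 5 pairs passed, all with RT1-DMa on 1 side and RT1-Ba, RT1-Bb, RT1-DMb, Cd74 or Ciita on the other (adjusted p = 0.0444 each).

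Cd74 encodes the invariant chain, the chaperone of class II dimers and also a receptor for the cytokine MIF. It read 0.19, -0.07, -0.04, -0.07 and 0.03 in young arrays and 0.05, -0.54, -0.03, 0.22 and 0.21 in old ones. Old replicate 3 stood far below all 9 other arrays, and the other 4 old arrays lay within or just above the young range. The difference of -0.02 ± 0.12 SE (95% interval -0.29 to 0.25, limma adjusted p = 0.934) became 0.11 (adjusted p = 0.366) without old replicate 3. The 95% interval on all arrays runs from 0.816-fold to 1.19-fold.

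Ciita encodes the transactivator, which binds no DNA itself and acts through the RFX and NF-Y factors on the X and Y boxes. Its 2 probe sets disagreed in pattern. Probe set 1379381_at read 0.15, -0.39, -0.15, -0.22 and 0.03 in young and -0.03, -0.15, 0.10, 0.17 and 0.13 in old arrays, with a difference of 0.16 ± 0.10 SE (limma adjusted p = 0.377). Probe set 1369214_a_at read -0.02, 0.03, 0.05, -0.02 and 0.15 in young and -0.19, 0.02, -0.13, 0.08 and -0.07 in old arrays, with a difference of -0.09 ± 0.06 SE (limma adjusted p = 0.429). Young replicate 2 was the lowest array in the first and above the median in the second. The gap of -0.25 between them gave an exact permutation p of 0.0794 (0.262 adjusted over the 9 pairs), and the gene mean differed by 0.03 ± 0.06 SE (95% interval -0.11 to 0.17, limma adjusted p = 0.796).

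**Figure D2:**
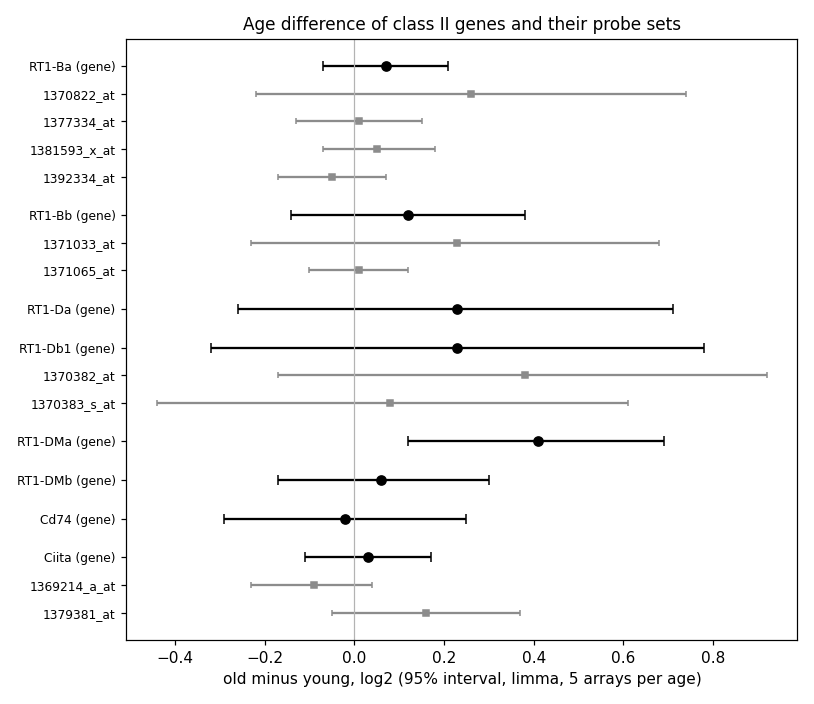
Old minus young difference on the log2 scale (horizontal axis) with its 95% interval from limma, 5 arrays per age, for the 8 genes (black circles) and for each probe set of genes that have more than 1 (grey squares). Among the genes every interval but that of RT1-DMa (0.12 to 0.69) includes 0, and the intervals are widest for RT1-Db1 and RT1-Da.

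With probe sets of a gene averaged, arrays of the same age differed widely in 6 of the 8 genes. The residual SD within age was 0.49 for RT1-Db1 and 0.43 for RT1-Da, above those of 99.6% and 99.4% of all genes. It was 0.25 for RT1-DMa, 0.23 for Cd74, 0.22 for RT1-Bb and 0.20 for RT1-DMb, at percentiles 96.2, 95.6, 94.6 and 92.5. The gene means of RT1-Ba (0.10) and Ciita (0.11) were near the middle, at percentiles 48.5 and 52.8. These means include flatter probe sets. RT1-Ba 1370822_at alone had 0.44 and Ciita 1379381_at 0.18, at percentiles 99.5 and 87.3 of all probe sets. The median residual SD of genes was 0.23 over the 8 members and 0.10 over all genes.

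This spread was shared between the genes. Old replicate 3 was below 0 in all 8 genes and the lowest array in 6, with a mean of -0.32 over the 8. Old replicates 5 and 6 and young replicate 1 were above 0 in all 8, with means of 0.35, 0.41 and 0.23. Young replicates 2, 3 and 4 were at or below 0 in all 8 (means of -0.19, -0.08 and -0.14), and young replicate 6, old replicate 2 and old replicate 4 were near 0 (-0.01, 0.04 and 0.03). Each age thus held arrays of high and of low class II.

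**Figure D3:**
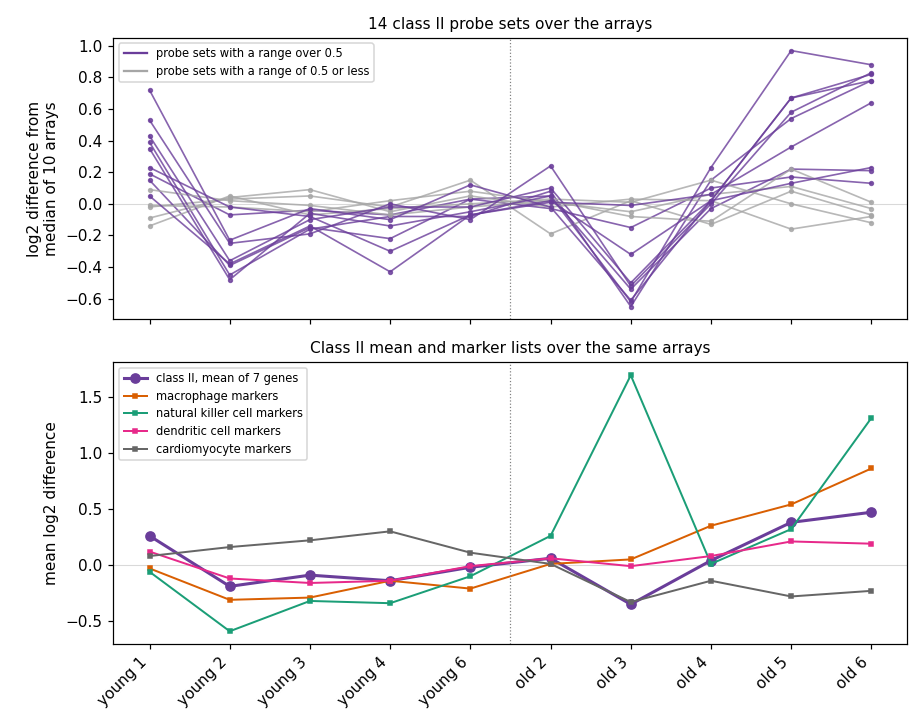
Log2 difference from the median of the 10 arrays (vertical axes) by array; lines join the values of 1 probe set or list, the dotted line separates young from old, and arrays have no order within an age. In the upper panel the 9 probe sets with a range over 0.5 (purple) are all above 0 in young replicate 1 and old replicates 5 and 6 and all below 0 in old replicate 3, though RT1-DMa only at -0.01, while 5 stay nearly flat (grey); the lower panel sets the mean of the RT1 genes and Cd74 beside marker lists, of which natural killer cell markers peak at 1.69 in old replicate 3.

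Partner chains of the B and D molecules followed each other closely, and so did chains of different molecules. RT1-Da had Pearson's r = 0.98 with RT1-Bb 1371033_at and 0.97 with RT1-Ba 1370822_at, above its r with RT1-Db1 1370382_at. Over the 10 arrays, the B chain probe sets 1370822_at (RT1-Ba) and 1371033_at (RT1-Bb) had Pearson's r = 0.98 and Spearman's rho = 0.98 (permutation, adjusted p = 0.000227 and 0.000607 over 91 pairs of probe sets, unadjusted p of 1e-05 and 2e-05), and r = 0.97 without the 2 arrays farthest from the median. The unadjusted p of 1e-05 is the smallest that the permutations can give. Here and below, the 2 farthest arrays are those of the first named probe set alone. The D chain probe sets 1370883_at (RT1-Da) and 1370382_at (RT1-Db1) had r = 0.93 and rho = 0.94 (permutation, adjusted p = 0.000834 and 0.00273), and r = 0.87 without the 2 farthest arrays. DM was looser: RT1-DMa and RT1-DMb had r = 0.67 and rho = 0.77 (permutation, adjusted p = 0.0802 and 0.0317). Their r was 0.35 without old replicate 6 and young replicate 4, the farthest arrays of RT1-DMa. It was 0.79 without old replicate 3, and 0.76 after each age was centred on its own mean.

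Cd74 had r = 0.86 and rho = 0.89 with RT1-Da (permutation, adjusted p = 0.000975 and 0.00643), 0.93 without the 2 farthest arrays. With RT1-DMa its r was 0.47 and its rho 0.78 (permutation, adjusted p = 0.285 and 0.0289), and r was 0.83 without the 2 farthest arrays, old replicates 3 and 5. The Ciita probe set 1379381_at had r = 0.82 and rho = 0.94 with RT1-Db1 1370382_at (permutation, adjusted p = 0.0158 and 0.00273), and 0.85 without the 2 farthest arrays. The other Ciita probe set had r between -0.24 and 0.27 with every other member probe set, so the 2 do not give the same picture of the transactivator.

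Of all 91 pairs, 31 were positive with both adjusted p under 0.05, and these joined 9 of the 14 probe sets, 1 or more for each of the 8 genes. Their r ranged from 0.73 upward, from 0.71 upward after each age was centred on its own mean, and from 0.69 to 0.98 without old replicate 3. Without the 2 arrays farthest from the median in the first probe set of each pair, the lowest was 0.37. There were 3 negative pairs that passed, all of them between RT1-Ba 1392334_at and another probe set: RT1-Da (r = -0.82), RT1-Bb 1371033_at (r = -0.81) and RT1-Ba 1370822_at (r = -0.75). Points in these relations share an array, and with it the RNA preparation and the mixture of cells in that heart.

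**Figure D4:**
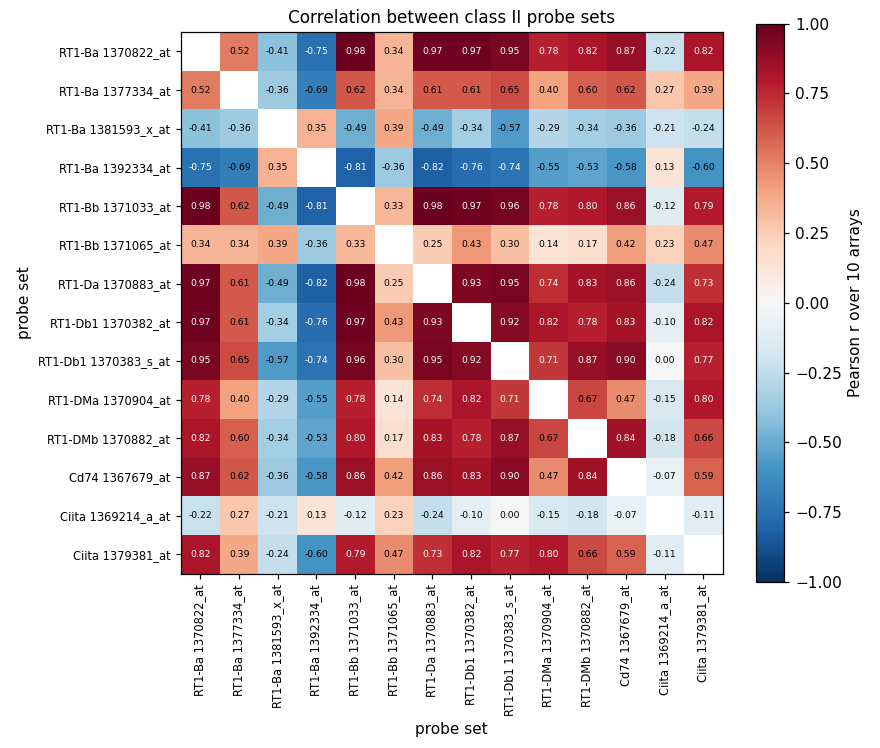
Pearson's r over the 10 arrays for each pair of the 14 class II probe sets, with both axes ordered by gene. A block of high r joins RT1-Ba 1370822_at, RT1-Bb 1371033_at, RT1-Da, both RT1-Db1 probe sets, the DM chains, Cd74 and Ciita 1379381_at, while RT1-Ba 1392334_at is negative to all of them and Ciita 1369214_a_at stands apart.

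A trace of the original brightness remains in the numerical step of the deposited values, from which approximate classes were inferred (log2 level of 2 to 4, 4 to 8, and 8 or more before centring). Probes differ in how strongly they bind, so these classes order no gene against another. Of the 14 member probe sets 8 were in the highest class, 5 in the middle one and 1, RT1-Bb 1371065_at, in the lowest. The flat RT1-Ba probe sets 1381593_x_at and 1392334_at were in the highest class, RT1-Ba 1377334_at and both Ciita probe sets in the middle one.

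Other genes of the pathway were described from 6 lists with 70 measured genes, of which 8 rose and 2 fell (14.3%, against 11.9% of all genes called). Leaving out 1 array moved that count of 10 to 5 (young replicate 2), 4 (young replicate 3), 6 (old replicate 5) or 17 (old replicate 3). Among endosomal proteases and antigen processing, 3 of 12 rose, 0 fell and 11 had higher means in old hearts. The 3 were Ctss, the cathepsin that makes the last cuts in the invariant chain (1.67-fold, log2 0.74 ± 0.18 SE, limma adjusted p = 0.0198), Ctsb (0.53, adjusted p = 0.0139) and the cathepsin inhibitor Cst3 (0.24, adjusted p = 0.00905). The call of Ctss was lost without young replicate 2 or 3 or old replicate 5 (adjusted p of 0.0518 to 0.0547). Ctse did not pass (0.29, 0.0662), but passed without young replicate 6, and without old replicate 3, where Sppl2a passed too and the count was 5. The same 5 genes passed with array weights. Ifi30, the thiol reductase that unfolds antigens, differed by 0.12 (adjusted p = 0.564).

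Among regulators of class II transcription, which are factors bound at the promoters plus the histone methyltransferase Ezh2, 1 of 9 measured fell and 0 rose. It was Nfyc, a subunit of the Y box factor NF-Y (-0.24 ± 0.05 SE, limma adjusted p = 0.0107), whose partner subunits Nfya and Nfyb differed by 0.05 and 0.00 (adjusted p = 0.709 and 0.971). The X box factor genes Rfxank, Rfxap and Rfx5 differed by -0.15, -0.12 and 0.08 (adjusted p = 0.166, 0.273 and 0.528), and Irf8, a factor of dendritic cells and macrophages, by 0.45 (0.0753), a difference that passed without young replicate 1 or old replicate 3. Irf8 also passed with array weights, the replicate block or the spread filter. In interferon gamma signalling, the main inducer of the transactivator, 0 of 11 genes passed limma, with 5 at an unadjusted p under 0.05 and 2 by the exact permutation test. Ifngr1, a receptor chain, came nearest (0.27, adjusted p = 0.0501), Gbp2 differed by 0.62 (0.0704), Irf1 by 0.37 (0.0980), Cxcl9 by 0.23 (0.133) and Ifng itself by -0.10 (0.350). Ifngr1 passed without young replicate 6, old replicate 2 or old replicate 3, and Gbp2, Irf1 and Cxcl9 without young replicate 1. With all arrays, Gbp2 and Ifngr1 passed with quantile normalization, array weights or the spread filter. Gbp2 and Irf1 passed with the replicate block. Ifngr1 also passed without x_at probe sets, or with only the highest inferred class of probe sets. Of the partners of the invariant chain and regulators of class II traffic, 0 of 10 passed limma, with 4 at an unadjusted p under 0.05 and 3 by the exact permutation test. The 4 were Cd63 (0.17, adjusted p = 0.0631), Cd44 (0.14, 0.0772), Cd37 (0.31, 0.112) and the ubiquitin ligase gene Marchf8 (0.16, 0.189). Cd63 and Cd44 passed without old replicate 3 or with array weights.

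Among genes of MHC class I presentation, 3 of 21 rose and 1 fell. The class I transactivator gene Nlrc5 (0.31 ± 0.07 SE, limma adjusted p = 0.0131; 0.0581 without old replicates 3 and 6 together), the light chain gene B2m (0.31, 0.0252) and the class I gene RT1-S3 (0.60, 0.0271) rose, and Pdia3, a chaperone of class I loading, fell (-0.21, 0.0304). B2m lost its call without young replicate 3 or old replicate 6, RT1-S3 without young replicate 2, 3 or 4 or old replicate 5, and Pdia3 without young replicate 1, 2 or 3 or old replicate 4 or 5. The list's count of 4 calls was 2 without young replicate 2 or old replicate 5 and 1 without young replicate 3. Of the costimulatory genes, 2 of 7 rose: Cd83 (0.62, adjusted p = 0.0201), which protects surface class II from degradation, and Icoslg (0.22, 0.0477). The call of Cd83 was lost without young replicate 2 or 3, and that of Icoslg without any 1 of 8 arrays (young replicates 1, 2, 3, 4 and 6 and old replicates 4, 5 and 6). Tnfsf9 (0.07, adjusted p = 0.416) and Cd80 (0.08, 0.558) did not pass. Whether class I and class II genes differed from each other in their change was not tested.

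**Figure D5:**
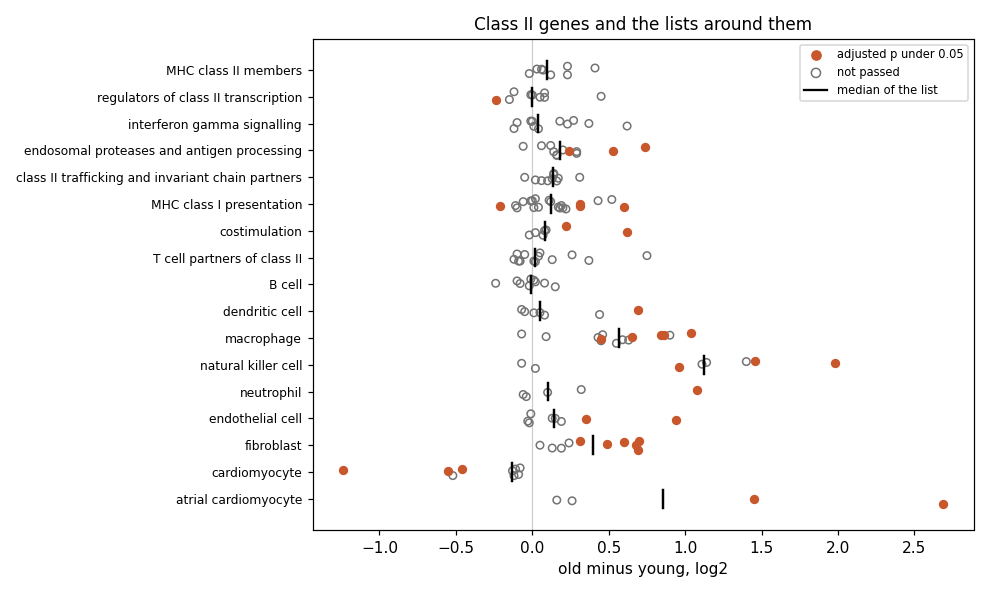
Old minus young difference on the log2 scale (horizontal axis) for the class II members and for the genes of each list; filled points passed limma at an adjusted p under 0.05, open points did not, and bars are list medians. The class II members have a median of 0.09 and no filled point, beside 3 of 12 filled for endosomal proteases and 5 of 14 for macrophage markers.

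Markers of the cells that carry or read class II were set beside the members. Of the macrophage markers, 5 of 14 rose, Cd163 (0.84 ± 0.15 SE, limma adjusted p = 0.00589), C1qa (0.86, 0.00998), Fcgr1a (0.65, 0.0222), Mrc1 (1.04, 0.0270) and Aif1. The count was 2 to 3 without young replicate 2, 3 or 4 or old replicate 5 or 6, and 9 to 10 without old replicate 2 or 3. With all arrays it was 11 with quantile normalization, 12 with array weights, 10 with the spread filter and 7 with the replicate block. At an unadjusted limma p under 0.05 there were 12 of the 14, against 26.3% of all genes. The list mean was -0.03, -0.31, -0.29, -0.14 and -0.21 in young replicates 1, 2, 3, 4 and 6 and 0.01, 0.05, 0.35, 0.54 and 0.86 in old replicates 2 to 6, without overlap. The mean of the 8 class II genes on the same arrays was 0.23, -0.19, -0.08, -0.14 and -0.01, then 0.04, -0.32, 0.03, 0.35 and 0.41, with overlap. Both were highest in old replicates 5 and 6, and among young arrays both were highest in replicate 1 and lowest in replicate 2. Old replicate 3 was the lowest of all arrays in class II, while its macrophage mean stood above all young arrays. The macrophage markers were divided on that array, from -0.21 in Csf1r to 0.28 in C1qb.

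Of the dendritic cell markers 1 of 7 rose, Itgax (0.69, limma adjusted p = 0.0454), a call lost without young replicate 2, 3, 4 or 6 or old replicate 2, 4 or 5. Clec10a (0.44, 0.0597), Fscn1 (-0.05, 0.603), Batf3 (0.05, 0.692) and Flt3 (0.01, 0.968) did not pass. Clec10a passed without young replicate 1, old replicate 2 or old replicate 3, and with array weights, the replicate block or the spread filter. The list mean of dendritic cell markers was 0.12, -0.12, -0.16, -0.14 and -0.01 in young arrays and 0.06, -0.01, 0.08, 0.21 and 0.19 in old ones. The 3 highest arrays, young replicate 1 and old replicates 5 and 6, were also the 3 highest in class II, whereas old replicate 3, the lowest in class II, stood level with or above 4 of the 5 young arrays. The dendritic cell markers were divided on that array, from -0.43 in Clec9a, its lowest array, to 0.21 in Flt3.

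Of 9 B cell markers 0 passed limma (2 at an unadjusted p under 0.05, 2 by the exact permutation test). Those with the smallest p were Ms4a1 (-0.24, adjusted p = 0.0681, passing without old replicate 3 or with array weights), Jchain (0.15, 0.0749, passing without old replicate 2), Cd79b (-0.10, 0.232) and Blk (-0.08, 0.360). Of 13 T cell genes 0 passed limma (2 at an unadjusted p under 0.05, 1 by the exact permutation test). Lck differed by 0.75 (adjusted p = 0.0778, passing without old replicate 2 or 4), Cd247 by 0.37 (0.171), Cd3d by -0.12 (0.245), Cd3g by 0.26 (0.259, passing without old replicate 3) and Cd4, the coreceptor that binds class II, by -0.08 (0.517). Lck also passed with quantile normalization or the spread filter.

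Old replicate 3, the lowest array in class II, had the highest natural killer cell marker mean of all arrays (1.69, against 0.01 to 1.31 in the other old arrays and -0.59 to -0.06 in young ones) and the lowest cardiomyocyte marker mean (-0.33). Natural killer markers rose in 3 of 8 genes, Gzma (1.98, limma adjusted p = 0.0201), Klrd1 (0.96, 0.0306) and Gzmb (1.46, 0.0431), and Eomes did not pass (1.14, 0.0542). That count was 0 without young replicate 2 or 3, 1 without young replicate 4 or old replicate 6, 2 without young replicate 1 or 6 or old replicate 3, and 6 without old replicate 2 or 4. With all arrays it was 6 with quantile normalization, the replicate block or the spread filter, and 2 with array weights. The receptor genes Ncr1 (0.02, limma adjusted p = 0.907) and Klrk1 (-0.07, 0.561) did not pass. They read 0.15 and 0.03 in old replicate 3, where Gzma read 3.38, so not all markers of the list were high there. The T cell list mean was also highest of all arrays in old replicate 3, at 0.16, with Lck at 1.57 and Cd3g at -0.46.

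Cardiomyocyte markers fell in 3 of 9, Myh6 (-1.24, limma adjusted p = 0.00124), Actn2 (-0.46, 0.00747) and Ryr2 (-0.55, 0.00786), with Ttn next (-0.52, 0.0597) and list means of 0.08 to 0.30 in young and -0.33 to 0.01 in old arrays. Fibroblast markers rose in 6 of 10, led by Dpt (0.70, adjusted p = 0.00267), Mfap5 (0.69, 0.00498), Lum (0.68, 0.0130) and Pi16 (0.49, 0.0227), with list means of -0.29 to 0.00 and -0.06 to 0.47; the count was 3 without young replicate 3, old replicate 5 or old replicate 6. Without young replicate 2 it was 4.

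Atrial markers rose in 2 of 4, Nppa (2.69, limma adjusted p = 0.00180) and Myl7 (1.45, 0.0261), while Myl4 (0.26, 0.151) and Sln (0.16, 0.507) did not pass, with list means of -1.05 to -0.29 in young and 0.16 to 0.83 in old arrays. That count was 1 with quantile normalization or without young replicate 2, 3 or 4 or old replicate 5 or 6. Endothelial markers rose in 2 of 8, Tek (0.35, adjusted p = 0.0170) and Vwf (0.94, 0.0231, lost without young replicate 3), with Pecam1 (0.19, 0.200) and Esam (0.13, 0.329) next. Of the neutrophil markers 1 of 5 rose, S100a9 (1.08, adjusted p = 0.0271), which reads 2.13 in old replicate 6 and no more than 0.54 in the other old arrays, and whose call was lost without young replicate 2, 3, 4 or 6. S100a8 (0.32, 0.184), Csf3r (0.10, 0.241) and Mmp8 (-0.06, 0.666) did not pass. No level is kept from which a marker could be called near 0, and the part of any of these markers in the class II values was not tested.

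The genes most like the class II profile were found by the smallest root mean square difference of log2 values over the 10 arrays from the mean of the 6 RT1 genes and Cd74. That mean profile has a root mean square of 0.25, and the median distance of the 14209 genes outside the members was 0.27. The 8 nearest were Bst2 (0.10), Clec12a (0.10), Rgs18 (0.10), Clec4a (0.11), Rilpl2 (0.12), Ifi30 (0.12), Hsd11b1 (0.12) and Uchl3 (0.12). The 6 RT1 genes and Cd74 themselves lay at 0.06 (RT1-Bb) to 0.23 (RT1-Db1). Each of them is part of that mean, so their distances are not comparable with those of outside genes. No distance was computed for Ciita. The 8 nearest genes were chosen for following this profile, so their values by age are given as a description, with no test. In Clec4a, which encodes a lectin receptor of dendritic cells and macrophages, the young arrays read 0.30, -0.36, -0.26, -0.10 and 0.10 and the old ones -0.09, -0.41, 0.09, 0.47 and 0.47, with the lowest value in old replicate 3 as in Cd74 and the D chains. Bst2, an interferon-induced membrane protein gene, was instead lowest in young replicate 2 (-0.35), with -0.18 in old replicate 3.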

How the data were processed

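Total RNA of rat heart (10 samples, 5 per age) was extracted with TRIzol and an affinity column, amplified through a pair of rounds of cDNA synthesis, biotin-labelled and hybridized, per the labels' protocols. The authors deposited log2 values in which each probe set has a median of 0 over the 10 arrays; scanning software, background correction and normalization were not given in the sources used here, and base 2 was inferred from the values. Array medians lay between -0.00972 and 0.0093. The number of arrays limits the precision.

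Of 31042 probe sets, 20826 had 1 gene symbol in the platform annotation, 436 several and 9780 none listed; 20758 were matched to current symbols by gene identifier. Probe sets of a gene were averaged. Ages were compared with limma 3.58.1 in R 4.3.3 (lmFit, eBayes, no covariate), two-sided and adjusted over all genes or probe sets, after the code was tested on simulated data. Pairs were tested by exact permutation of the 252 arrangements of arrays, and correlations with 100000 permutations (scipy 1.17.1), two-sided. Alternatives were quantile normalization, median centring, array weights, the replicate number as a block, a spread filter, other summaries of probe sets, and leaving out arrays. Members and lists were chosen with earlier results of these data known. Of each list the 4 genes with the smallest p were named, all where fewer than 5 were measured. The 8 genes most like the members' mean were named too. After their values were seen, Nfya, Nfyb, Rfx5, Ifng, Flt3 and Cd4 were named for their roles, and Aif1 and Sppl2a for their calls. Csf1r, C1qb, Clec9a, Ncr1 and Klrk1 were also named after their values were seen, to show how their lists divide. A listed name that is a current symbol was never matched as an old alias of another gene.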

Additional observations from a re-analysis of the deposited data

Results flagged for a closer look

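No member gene or member probe set had an array that stood apart from the other 4 of its age by Dixon's test, old replicate 3 included. Over the members, their probe sets and other genes examined by name, 10 of 192 groups of 5 arrays had such an array, and chance gives about 1 in 20. In old replicate 6 these were Itgax, an integrin of dendritic cells and macrophages (1.14, nearest other old array 0.29), S100a9 (2.13, nearest 0.54), S100a8 (0.93, nearest 0.17), Irf1 (0.51, nearest 0.06) and Rfxank (-0.21, nearest -0.04). In old replicate 3 the T cell receptor complex gene Cd3g stood low (-0.46, nearest 0.22). The T cell genes were divided on that array, from Cd3g up to Cd247 at 0.69 and Lck at 1.57. Their list mean of 0.16 was the highest of all arrays. In young replicate 1, Cd83 (0.08, nearest -0.33) and Rgs18 (0.33, nearest -0.05) stood high. The others were Mmp8 in young replicate 2 (0.29, nearest 0.02) and Sln, an atrial marker, in young replicate 6 (-0.24, nearest 0.00).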

How the results depend on the processing

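The count of member genes called was 0 and became 1, RT1-DMa, with quantile normalization, array weights, a replicate block or the spread filter; leaving out 1 array gave 0 to 1. Of the member probe sets 1 passed with array weights, the block or the spread filter, and 0 to 1 when an array was left out. Over all probe sets 2492 were called, 1640 with the replicate block, 1526 without old replicates 3 and 6 together, and 1481 to 2943 when 1 array was left out. Over all genes 1686 were called, 1069 with the block, 1012 without those 2 arrays and 988 to 1994 when 1 was left out. Pathway genes called numbered 10, 18 with array weights, and 4 to 17 when 1 array was left out. Pairs of member genes that passed numbered 0 to 5 when 1 array was left out, and pairs of probe sets 0.

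Some young and old arrays share a replicate number, which the labels do not describe as a pairing. After each age was centred on its own mean, same-numbered arrays correlated at 0.00595, 0.0554, 0.137 and 0.0432. None correlated best with its own number. These values cannot settle whether the arrays were paired. With the block, RT1-DMa differed by 0.43 (adjusted p = 0.0349), RT1-Ba 1377334_at by -0.02 and RT1-Bb 1371065_at by -0.01, and 5 of the named list genes lost their call: Nfyc (adjusted p = 0.0728), Cst3 (0.0556), Pdia3 (0.176), Icoslg (0.138) and Tek (0.0558).

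Of the single values of members, 341 kept their direction and side of the threshold, 11 (all of RT1-DMa) passed it and 21 changed sign; the cause was not tested. RT1-DMa ranged from 0.30 to 0.47. Cd74 was 0.04 as probe set and 0.05 as gene with array weights, 0.02 without young replicate 1, 0.11 without old replicate 3 and 0.07 without old replicates 3 and 6. RT1-Db1 1370383_s_at (-0.08 to 0.28 when 1 array was left out) was -0.09 with quantile normalization, 0.00 without young replicate 2, -0.04 without old replicate 5 and -0.08 without old replicate 6. RT1-Ba 1377334_at was -0.01 without young replicate 4 and -0.04 without old replicate 5, RT1-Bb 1371065_at -0.01 without old replicate 5 (up to 0.03 without young replicate 6), RT1-DMb 0.00 without young replicate 4 (up to 0.15 without old replicate 3), and Ciita 0.00 without young replicate 2 or old replicate 5. Averaging only the highest inferred class of probe sets and the correlations without old replicate 3 were chosen after seeing the data. Signal over background is not known, so a flat probe set and a dim one cannot be told apart beyond the inferred classes.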
